A study of Arabidopsis thaliana with 14 samples.

Results

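Among the transcripts that fell under DTT in these seedlings, 48 belonged to loci that the annotation lists by locus identifier alone. They were chosen by their values. A probe set was taken when it was annotated to exactly 1 gene without a symbol and when the array with DTT lay 1 log2 unit or more below the array without it in all 4 pairs, namely batches 1 and 2 of the CSN8 mutant and of Wassilewskija. Of 11933 probe sets with 1 gene and no symbol, 48 met the rule (0.402%), each for a different locus, out of 22746 probe sets in all. The same drop was found in 96 of all probe sets (0.422%), in 11 of the 1580 with a symbol (0.696%) and in 37 with several genes or none.

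The 14 arrays measured whole Arabidopsis thaliana seedlings at 12 days of age, grown on MS agar with 16 h of light and 8 h of darkness. The groups were the CSN8 mutant with DTT, the CSN8 mutant, the Wassilewskija wild type with DTT and the Wassilewskija wild type (2 arrays each, 1 in batch 1 and 1 in batch 2), and the csn5a-1 mutant and the Columbia wild type (3 arrays each, named biological replicates). DTT is given in the sample names only. Its dose and duration are not stated, and a protocol text shared by the samples says that seedlings received no additional treatment. The allele and the accession background of the CSN8 mutant are not stated either, so the mutation and any difference in background cannot be told apart. No probe set used here was annotated to CSN5A or CSN8, and neither mutant was checked on its own gene. Nothing states that the arrays of batches 1 and 2 came from separate cultures, so p-values measure the spread between these arrays, which may be technical. Because whole seedlings were extracted, fewer cells of a type and less RNA per cell cannot be told apart.

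Dithiothreitol, the usual meaning of DTT, is a reducing agent that breaks disulfide bonds and hinders the folding of proteins that enter the endoplasmic reticulum. Plant cells answer unfolded proteins there by raising transcripts of chaperones and degradation factors, and transcripts of many secreted and cell wall proteins are known to fall. The COP9 signalosome (CSN) is a protein complex that takes RUB, a relative of ubiquitin, off the cullins of ubiquitin ligases. CSN5A carries its catalytic site, and CSN8 is another of its subunits. The reference gene table gives a name for 1 of the 48 loci, AT5G64120, which it lists under the synonym peroxidase 71 (PRX71). Peroxidases of this class are secreted enzymes that act on cell wall and phenolic substrates. The other 47 are called by locus, and no role is given for them here.

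The 10 largest mean drops ran from 4.92-fold to 18.2-fold. AT5G54370 had log2 levels of 4.47 and 3.88 in CSN8 + DTT, against 9.03 and 8.61 in CSN8. In Wassilewskija + DTT it had 3.89 and 3.83, against 7.02 and 8.14 in Wassilewskija. Every array with DTT lay far below every array without, and the mean of the 4 pair differences was -4.18 ± 0.72 (SD, n = 4 pairs), an 18.2-fold lower level. AT4G33550 had 4.68 and 4.08 in CSN8 + DTT against 7.46 and 7.36 in CSN8, and 4.16 and 3.80 in Wassilewskija + DTT against 7.24 and 8.26 in Wassilewskija. The 2 genotypes ended at similar low values, and the groups did not overlap (-3.40 ± 0.74, 10.6-fold lower). AT1G48750 had 6.98 and 6.54 in CSN8 + DTT against 10.14 and 9.47 in CSN8, and 6.93 and 7.74 in Wassilewskija + DTT against 10.17 and 10.52 in Wassilewskija. Its pair differences were close to each other (-3.03 ± 0.21).

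AT5G01870 had 7.01 and 5.22 in CSN8 + DTT against 10.19 and 9.34 in CSN8, and 5.36 and 5.36 in Wassilewskija + DTT against 7.67 and 8.01 in Wassilewskija. Without DTT the CSN8 arrays were above the Wassilewskija arrays, and the drop was -3.07 ± 0.79. AT3G16370 had 7.29 and 7.49 in CSN8 + DTT against 10.78 and 11.38 in CSN8, and 8.64 and 9.66 in Wassilewskija + DTT against 10.86 and 11.29 in Wassilewskija. Without DTT the genotypes overlapped at this locus, and with DTT the CSN8 arrays lay below the Wassilewskija arrays (-2.81 ± 1.06, the widest spread among the 48). AT1G50060 had 6.37 and 5.81 in CSN8 + DTT against 9.15 and 8.68 in CSN8, and 5.35 and 5.31 in Wassilewskija + DTT against 6.64 and 8.31 in Wassilewskija. The batch 1 pair of Wassilewskija fell least (-2.49 ± 0.80 over the 4 pairs). AT1G78060 had 5.39 and 4.54 in CSN8 + DTT against 7.95 and 7.61 in CSN8, and 5.28 and 5.73 in Wassilewskija + DTT against 7.16 and 7.42 in Wassilewskija (-2.30 ± 0.63). AT1G52060, AT1G52070 and AT4G29270, the remaining 3 of the 10 largest drops, have a neighbour among the 48 and are described with it. None of the 10 had arrays with DTT that overlapped those without.

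**Figure D1:**
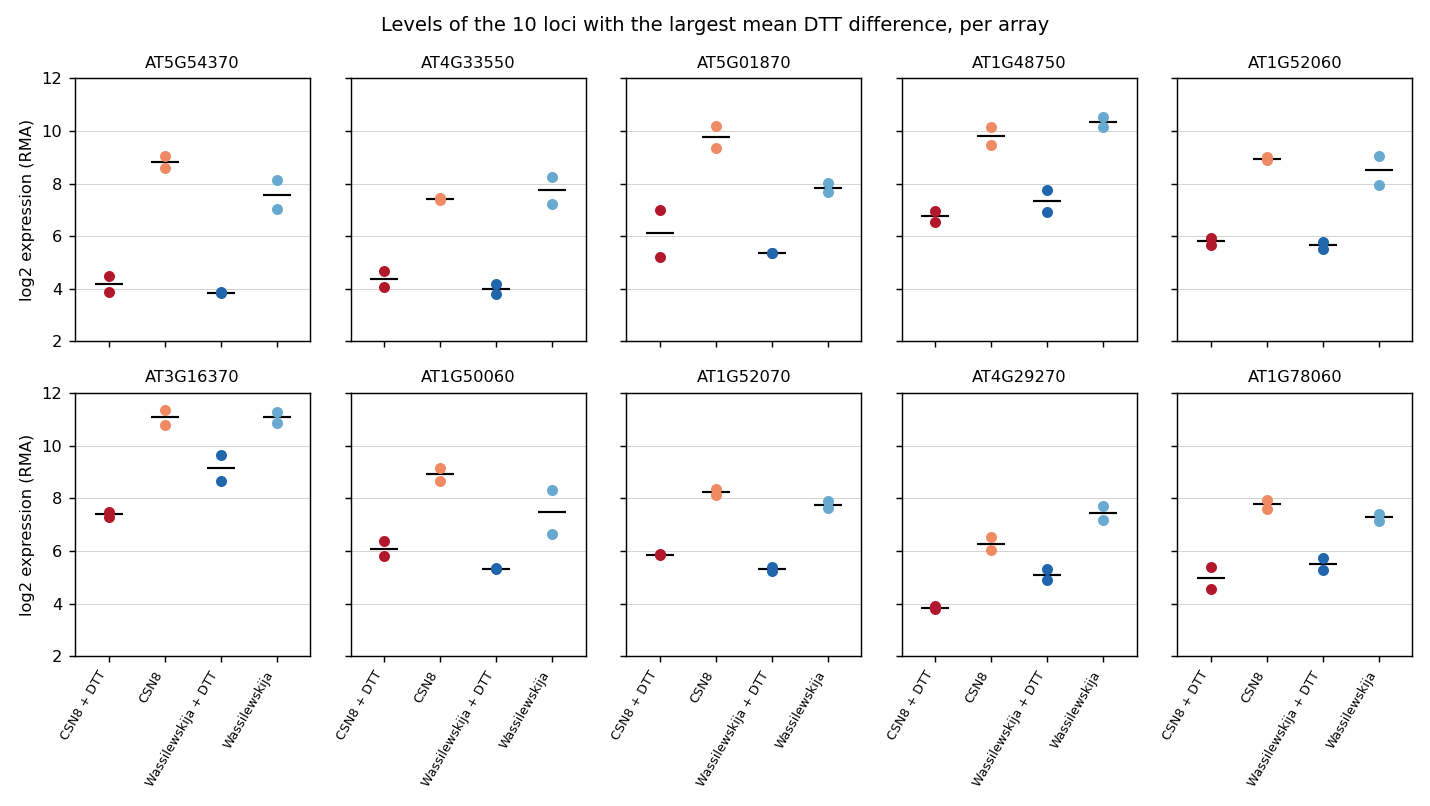
Log2 levels of the 10 loci with the largest mean drop, 1 panel per locus, in CSN8 + DTT, CSN8, Wassilewskija + DTT and Wassilewskija. Points are arrays and bars are group means. In every panel all 4 arrays with DTT lie below the 4 arrays without it.

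Over the 48 loci the mean drop had a median of -1.83 and ran from -4.18 to -1.13, that is from 18.2-fold to 2.18-fold lower. The pairs had similar medians, -2.03 for CSN8 batch 1, -1.78 for CSN8 batch 2, -1.67 for Wassilewskija batch 1 and -1.70 for Wassilewskija batch 2. Over all probe sets the 4 medians lay between -0.02 and 0.02. The mean drop was 2 log2 units or more at 17 loci, and 6 loci reached that size in every pair. At 33 loci all 4 arrays with DTT lay below all 4 without, against 3.07% of all probe sets, a share that the rule itself raises for the 48. These values are the ones that chose the loci, so they carry no test. Just inside it, AT4G28780 had a smallest drop of -1.01, AT4G32460 of -1.01 and AT4G13580 of -1.02, and just outside it AT1G02305 had -0.99, AT1G28400 -0.98 and AT2G37870 -0.97.

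**Figure D2:**
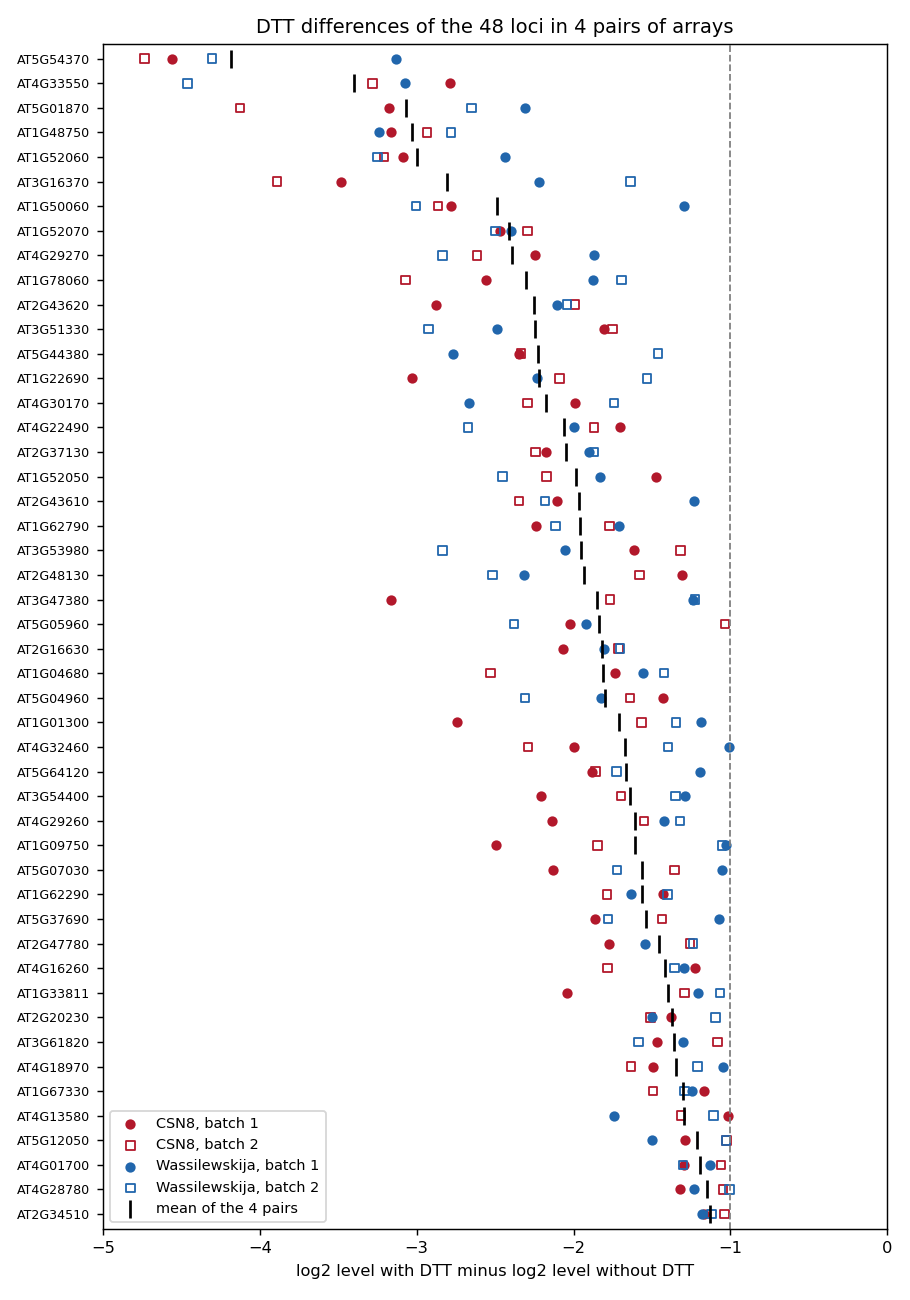
Log2 level with DTT minus log2 level without DTT for each of the 48 loci, ordered by the mean of the 4 pairs. Red marks are CSN8 pairs, blue marks Wassilewskija pairs, filled circles batch 1, open squares batch 2, black ticks the mean, and the dashed line is the limit of -1 that chose the loci. Means run from -4.18 at AT5G54370 to -1.13 at AT2G34510.

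The mean level of the 48 loci with DTT had a median of 5.91, against 7.83 without it, and ran from 3.55 to 8.63, against 5.05 to 11.08. With DTT, 15 loci had a mean level below the median of all values of those 8 arrays (5.30), and none had one below the lower quartile (3.29). Of the 192 single values with DTT, 1 lay below that quartile, 2.92 at AT3G51330 in Wassilewskija + DTT. The mean level without DTT was highest at AT3G16370 and lowest at AT4G28780, but probe sets differ in how brightly they report a transcript, so this order is one of signal and not of abundance.

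The size of the drop was compared between the genotypes as a description, since the rule used both. The drop in CSN8 minus that in Wassilewskija had a median of -0.16 and ran from -1.76 to 0.98. It was more negative in CSN8 in both batches at 20 loci, less negative in both at 9, and differed in sign between batches at 19. The same counts were not made over all probe sets, so nothing is read from them for the 48 loci. Over all probe sets, 758 fell by 1 log2 unit or more in the CSN8 batch 1 pair, against 373 to 447 in the other pairs. AT3G16370 fell by 1.76 more in CSN8 and AT5G01870 by 1.17 more, on the log2 scale. AT3G47380 had 4.96 and 5.37 in CSN8 + DTT against 8.12 and 7.14 in CSN8, and 7.31 and 5.41 in Wassilewskija + DTT against 8.55 and 6.64 in Wassilewskija. Its drop was larger in CSN8 by 1.93 in batch 1 and by 0.54 in batch 2. The drop was smaller in CSN8 at AT3G53980 (by 0.98), AT2G48130 (by 0.97) and AT3G51330 (by 0.93). AT2G48130 had 4.37 and 4.28 in CSN8 + DTT against 5.68 and 5.86 in CSN8, and 5.02 and 3.53 in Wassilewskija + DTT against 7.34 and 6.04 in Wassilewskija. AT3G51330 had 4.70 and 3.72 in CSN8 + DTT against 6.50 and 5.47 in CSN8, and 3.36 and 2.92 in Wassilewskija + DTT against 5.85 and 5.85 in Wassilewskija. At AT3G51330 the level with DTT was lower in both Wassilewskija arrays than in both CSN8 arrays.

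Some loci also differed between batches. AT2G43620 had 6.73 and 5.86 in CSN8 + DTT against 9.60 and 7.85 in CSN8, and 8.26 and 4.63 in Wassilewskija + DTT against 10.37 and 6.67 in Wassilewskija. Batch 2 was lower in all 4 groups, by 2.49 on average, so arrays with and without DTT overlapped although each pair fell by about 2 log2 units or more. PRX71 (AT5G64120) had 7.31 and 6.47 in CSN8 + DTT against 9.20 and 8.33 in CSN8, and 9.55 and 7.15 in Wassilewskija + DTT against 10.74 and 8.87 in Wassilewskija. Batch 2 was lower in all 4 groups here too. In all, 11 loci were higher and 9 lower in batch 2 in every group, against 14.3% and 12.2% of all probe sets.

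Neighbouring genes were represented. In the order of the TAIR10.1 reference, 7 of the 48 loci lie directly next to another of the 48, as AT1G52050, AT1G52060 and AT1G52070, as AT2G43610 and AT2G43620, and as AT4G29260 and AT4G29270. Of the 37 loci of the same kind that were raised by 1 log2 unit or more in all 4 pairs, 0 lie next to another of their group. Neither count was set against other sets of loci, so nothing is read from the contrast. Whether probes of neighbouring copies also bind each other's transcripts was not tested. AT1G52060 had 5.92 and 5.68 in CSN8 + DTT against 9.01 and 8.88 in CSN8, and 5.52 and 5.79 in Wassilewskija + DTT against 7.96 and 9.04 in Wassilewskija (-2.995 ± 0.38). AT1G52070 had 5.87 and 5.83 in CSN8 + DTT against 8.34 and 8.12 in CSN8, and 5.23 and 5.40 in Wassilewskija + DTT against 7.63 and 7.89 in Wassilewskija. Its 4 drops were nearly equal (-2.41 ± 0.09). AT1G52050 had 5.29 and 5.46 in CSN8 + DTT against 6.76 and 7.63 in CSN8, and 4.70 and 5.49 in Wassilewskija + DTT against 6.53 and 7.94 in Wassilewskija. All 3 genes of that row had arrays with DTT below every array without it.

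AT4G29270 had 3.78 and 3.92 in CSN8 + DTT against 6.02 and 6.53 in CSN8, and 5.32 and 4.89 in Wassilewskija + DTT against 7.19 and 7.73 in Wassilewskija (-2.39 ± 0.43). Its neighbour AT4G29260 had 5.52 and 6.22 in CSN8 + DTT against 7.65 and 7.77 in CSN8, and 6.29 and 6.96 in Wassilewskija + DTT against 7.71 and 8.28 in Wassilewskija. AT2G43610, beside AT2G43620, had 6.36 and 6.22 in CSN8 + DTT against 8.46 and 8.57 in CSN8, and 5.98 and 5.74 in Wassilewskija + DTT against 7.21 and 7.92 in Wassilewskija. In all 3 of these loci the arrays with DTT lay below those without, unlike at AT2G43620. Of 40 measured direct neighbours of the 48 loci that are not among them, 0 fell by 1 log2 unit or more in all 4 pairs. The share of all probe sets was 0.422%. A neighbour without a symbol that fell so would itself be among the 48, so nothing is read from this count. The mean differences of these neighbours had a median of 0.03. The loci lie on chromosomes 1 to 5 in numbers of 14, 8, 6, 11 and 9, which is 29.2%, 16.7%, 12.5%, 22.9% and 18.8% of them. Of the probe sets with 1 gene and no symbol, the same chromosomes held 25.97%, 16.5%, 20.5%, 14.5% and 22.6%.

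**Figure D3:**
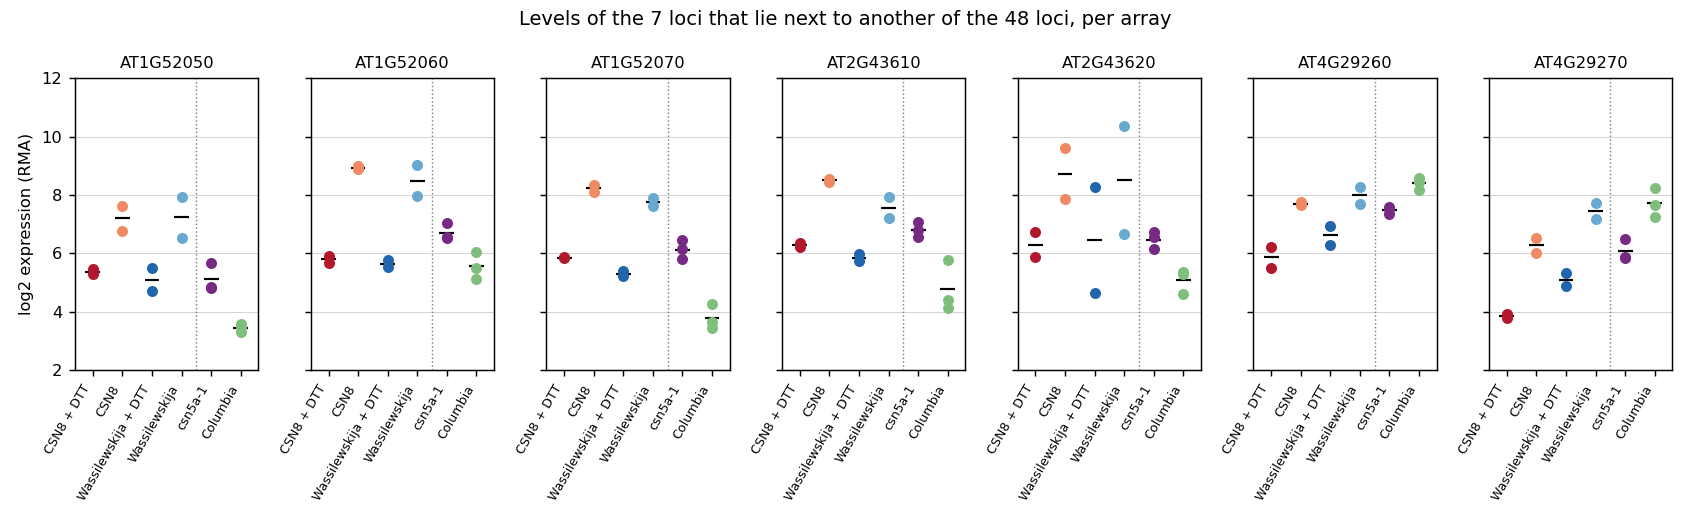
Log2 levels of the 7 loci that lie next to another of the 48, 1 panel per locus, with points for arrays and bars for group means, and with the separately normalized csn5a-1 and Columbia arrays right of the dotted line. The panels show lower levels with DTT in both genotypes. At AT2G43620 the arrays of a group lie far apart, from 4.63 to 8.26 in Wassilewskija + DTT and from 6.67 to 10.37 in Wassilewskija.

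Known gene lists give the setting of these drops, again as a description. Of 31 genes of the unfolded protein response, 11 were measured by 12 probe sets of their own (DER1 by 2). Of the probe sets, 8 were higher with DTT by 1 log2 unit or more in all 4 pairs and none was lower so, with a median of 1.96. Of 44 cell wall genes 17 were measured, with a median of -0.49. Of these, 8 were lower with DTT in all 4 pairs and 1, XTH18, was higher in all 4 (mean 1.17). EXLA1 (0.40) and EXLA2 (0.20) also had positive means. EXPA4 (-2.23) and EXPA18 (-1.39), expansins that loosen cell walls, met the same limit as the 48 loci. The other loci with a symbol that met it were SCPL49 (-2.45), OSM34 (-2.42), PYK10 (-2.09), NAI2 (-1.94), PRXR1 (-1.93), AQI (-1.52), MSRB5 (-1.48), TMT1 (-1.30) and LCR68 (-1.26). PYK10 is a beta-glucosidase of the ER body and NAI2 is needed to form that body. None of the 48 loci is in any of the lists. Nearly all list genes measured have a symbol, so this follows largely from the rule.

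Markers of cell types moved with DTT in part. Of 11 root hair genes only EXPA7 and EXPA18 were measured, and both are also counted among the cell wall genes. Their summed log2 level was 5.07 to 5.26 in CSN8 + DTT against 5.93 to 6.82 in CSN8, and 5.50 to 5.90 in Wassilewskija + DTT against 7.25 to 7.29 in Wassilewskija. The part of root hair cells in the drop of the 48 loci was not tested. Of 21 photosynthetic genes 4 were measured, with summed levels of 13.9 to 14.2 in CSN8 + DTT against 14.005 to 14.28 in CSN8, and of 14.3 to 14.5 in Wassilewskija + DTT against 14.4 to 14.5 in Wassilewskija. These leaf markers were present in every group. Such sums mostly follow the brightest genes. Of the 4, only LHCB4.2 was lower with DTT in all 4 pairs (mean -0.50), and the median was -0.03. The guard cell list had 1 of 3 genes measured, FMA, with a mean difference of 0.14. None of 8 genes of other root tissues and none of 9 late seed genes had a probe set of their own. A sign of RNA quality, the difference between the 3′ and 5′ probe sets of the GAPDH control, was 1.67 in CSN8 batch 1 and 0.25 to 0.62 in the other 7 arrays of that set, and its part was not tested. The median drop of the 48 loci in CSN8 was -2.03 in batch 1, which holds that array, and -1.78 in batch 2, which does not.

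The next question was how the CSN8 mutation changed these loci, taken over both DTT states, a contrast that the rule did not use. More of the 48 were lower than higher in CSN8. By limma with Benjamini-Hochberg adjustment over all probe sets, 12 were lower (25%) and 3 higher (6.25%). Of all probe sets 7.48% were lower and 7.40% higher, 14.9% in all. The median change of the 48 was -0.48, against 0.03 over all probe sets. The count of lower loci was 20 with batch as a block (background 10.9%) and that of higher loci 6 (background 11.3%). The count of lower loci was 5 without the batch 2 array of Wassilewskija + DTT, with 3.63% of all probe sets lower in that fit, and 7 without that of Wassilewskija, with 5.97%. Restricted to probe sets with a mean level over 5, 13 of 44 were lower and 4 higher, against 11.6% and 10.9% of all so restricted. Of the 17 cell wall genes measured, 7 were lower and 2 higher in CSN8 by the same test. Of the root hair markers 1 was lower (EXPA18, also among those 7). Of the photosynthetic ones 2 were lower and 1 higher. The part of these markers in the lower levels of the 48 loci was not tested. CSN8 arrays lay below Wassilewskija arrays in both DTT states at 18 loci and above them at 4, against 13.1% and 15.9% of all probe sets.

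AT2G47780 had the largest change of the 48. Its levels were 7.87 and 7.28 in CSN8 + DTT against 3.77 and 3.45 in Wassilewskija + DTT, with 9.64 and 8.54 in CSN8 against 5.31 and 4.69 in Wassilewskija. The CSN8 arrays were higher in both states, without overlap, by 4.03 ± 0.29 (SE, limma adjusted p = 0.000571), 16.3-fold. The difference was 4.21 in batch 1 and 3.84 in batch 2. AT2G43610 (0.69 ± 0.17, limma adjusted p = 0.0414) and AT1G52070 (0.50 ± 0.12, limma adjusted p = 0.0311) rose by less. The call on AT2G43610 was lost on leaving out any 1 array except batch 2 of Wassilewskija, and that on AT1G52070 on leaving out any 1 except batch 2 of CSN8 or of Wassilewskija, and with limma-trend.

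Among the lower loci, AT1G22690 had 4.84 and 6.88 in CSN8 + DTT against 8.40 and 9.47 in Wassilewskija + DTT, with 7.87 and 8.97 in CSN8 against 10.63 and 11.004 in Wassilewskija. Its change was -2.74 ± 0.50 (limma adjusted p = 0.0147, and 0.0600 without batch 2 of Wassilewskija + DTT). AT4G22490 had 4.24 and 4.38 in CSN8 + DTT against 6.35 and 6.69 in Wassilewskija + DTT, with 5.94 and 6.25 in CSN8 against 8.35 and 9.36 in Wassilewskija. AT3G53980 had 5.66 and 5.80 in CSN8 + DTT against 7.62 and 7.61 in Wassilewskija + DTT, with 7.28 and 7.11 in CSN8 against 9.67 and 10.45 in Wassilewskija. At these 2 loci the groups were clearly apart, with changes of -2.48 ± 0.23 and -2.37 ± 0.18 (limma adjusted p = 0.00144 and 0.000663). At both, the CSN8 level without DTT was below the Wassilewskija level with DTT.

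AT5G12050 had 3.95 and 4.31 in CSN8 + DTT against 5.49 and 6.07 in Wassilewskija + DTT, with 5.24 and 5.33 in CSN8 against 6.99 and 7.10 in Wassilewskija (-1.71 ± 0.16, limma adjusted p = 0.00144). AT4G29270 was lower by a change of -1.22 ± 0.19 (limma adjusted p = 0.00852). AT4G16260 (-1.47 ± 0.33), AT5G07030 (-1.45 ± 0.31) and AT5G05960 (-1.31 ± 0.28) passed with limma adjusted p of 0.0291, 0.0242 and 0.0236. Of the 8 ways to leave out 1 array, 5 ended the call on AT4G16260, 4 that on AT5G07030 and 5 that on AT5G05960. Leaving out batch 2 of Wassilewskija + DTT ended all 3. PRX71 did not pass (-1.25 ± 0.63, limma adjusted p = 0.246). With batch as a block its adjusted p was 0.0223.

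The last question was how these loci differed between csn5a-1 and Columbia, in arrays that took no part in choosing them and that carry no DTT label. The loci went both ways. By limma, 18 were higher in csn5a-1 (37.5%) and 11 lower (22.9%). Of all probe sets 16.0% were higher and 16.8% lower, 32.9% in all. Restricted to probe sets with a mean level over 5, 11 of 41 were higher and 12 lower, against 21.7% and 23.8% of all so restricted. Every locus that this filter removed had been called higher without it. With the replicate number as a block, 19 were higher and 11 lower, against 15.0% and 15.5%. The median change was 0.12, against -0.04 over all probe sets. The 3 csn5a-1 arrays lay above the 3 Columbia arrays at 18 loci and below at 14, against 22.7% and 26.2% of all probe sets. Of the cell wall genes 4 were higher and 6 lower in csn5a-1, and of the root hair markers 1 was higher (EXPA7, also among those 4). The summed root hair markers had a log2 level of 5.50 to 6.09 in csn5a-1 against 5.31 to 5.34 in Columbia. The actin control had a 3′ to 5′ difference of 3.93 to 4.95 in csn5a-1 against 3.35 to 3.67 in Columbia. That of GAPDH overlapped, with 1.29 to 1.67 in csn5a-1 against 1.24 to 1.67 in Columbia, and the part of these markers and of RNA quality was not tested.

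Of the 10 loci with the largest drops under DTT, 4 were higher in csn5a-1 and 5 lower, against 16.0% and 16.8% of all probe sets. In CSN8, 1 of the same 10 was higher and 1 lower, against 7.40% and 7.48%. A link between these calls and the size of the drop was not tested. AT5G54370 had 7.55, 6.79 and 6.69 in csn5a-1 against 5.44, 3.64 and 3.87 in Columbia (2.70 ± 0.47, limma adjusted p = 0.00407). AT1G50060 had 5.80, 5.13 and 5.11 in csn5a-1 against 3.52, 3.57 and 3.52 in Columbia (1.81 ± 0.19, limma adjusted p = 0.000432). The Columbia mean levels of AT5G54370 and AT1G50060 were low, at percentiles 34.5 and 23.2 of all probe sets. AT2G37130 had 9.37, 8.78 and 8.89 in csn5a-1 against 7.42, 6.29 and 6.55 in Columbia (2.26 ± 0.30, limma adjusted p = 0.00118). The groups did not overlap at any of these 3, of which AT2G37130 is not among the 10. AT4G30170 had 8.55, 7.64 and 7.60 in csn5a-1 against 7.23, 6.39 and 5.84 in Columbia (1.44 ± 0.38, limma adjusted p = 0.0237). Its call was lost without Columbia replicate 2 (0.0792) or 3 (0.0643). PRX71 had 7.16, 7.19 and 6.99 in csn5a-1 against 6.28, 5.90 and 5.09 in Columbia, and rose by 1.36 ± 0.28 (limma adjusted p = 0.00813).

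Within each row the neighbours went the same way. AT1G52070 had 6.46, 6.14 and 5.80 in csn5a-1 against 4.26, 3.43 and 3.66 in Columbia (2.35 ± 0.24, limma adjusted p = 0.000424). AT1G52050 had 5.67, 4.85 and 4.82 in csn5a-1 against 3.57, 3.31 and 3.49 in Columbia (1.65 ± 0.23). AT1G52060 had 7.04, 6.53 and 6.57 in csn5a-1 against 6.05, 5.51 and 5.14 in Columbia (1.15 ± 0.25). All 3 passed, the last 2 with limma adjusted p of 0.00148 and 0.0100, and in none did the groups overlap. The Columbia mean levels of AT1G52050 and AT1G52070 were low, at percentiles 21.6 and 27.6 of all probe sets. AT2G43610 had 7.06, 6.80 and 6.55 in csn5a-1 against 5.78, 4.14 and 4.41 in Columbia (2.03 ± 0.40, limma adjusted p = 0.00697). AT2G43620 had 6.14, 6.72 and 6.57 in csn5a-1 against 5.37, 5.31 and 4.61 in Columbia (1.38 ± 0.24, limma adjusted p = 0.00391). In contrast both genes of the other row were lower in csn5a-1. AT4G29270 had 6.49, 5.88 and 5.85 in csn5a-1 against 8.23, 7.67 and 7.25 in Columbia (-1.64 ± 0.27, limma adjusted p = 0.00339). AT4G29260 had 7.51, 7.60 and 7.34 in csn5a-1 against 8.60, 8.45 and 8.18 in Columbia (-0.93 ± 0.14, limma adjusted p = 0.00208). The groups were apart at both.

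AT1G48750 had 8.55, 8.71 and 8.86 in csn5a-1 against 10.60, 10.27 and 10.13 in Columbia (-1.63 ± 0.15, limma adjusted p = 0.000253). AT2G47780, the locus most raised in CSN8, had 6.37, 6.09 and 6.15 in csn5a-1 against 7.56, 7.30 and 7.77 in Columbia (-1.34 ± 0.15, limma adjusted p = 0.000547). Both were lower in every csn5a-1 array. AT4G33550 had 8.37, 8.17 and 8.15 in csn5a-1 against 8.86, 8.62 and 8.58 in Columbia (-0.45 ± 0.12, limma adjusted p = 0.0256). AT3G16370 had 11.08, 11.27 and 11.39 in csn5a-1 against 11.79, 11.90 and 11.90 in Columbia (-0.62 ± 0.12, limma adjusted p = 0.00574). AT1G78060 had 7.90, 8.06 and 7.98 in csn5a-1 against 8.81, 8.40 and 8.47 in Columbia (-0.58 ± 0.13, limma adjusted p = 0.0139). These 3, all among the 10 largest drops, changed by less than 1 log2 unit, and their groups were apart. AT4G28780 (-1.37 ± 0.15), AT1G62290 (-1.15 ± 0.09), AT4G18970 (-1.14 ± 0.11) and AT5G07030 (-0.83 ± 0.20) were lower as well, with limma adjusted p of 0.000547, 0.000136, 0.000329 and 0.0179. The call on AT5G07030 was lost without csn5a-1 replicate 2 (0.0639). AT3G53980 and AT4G22490, strongly lower in CSN8, had csn5a-1 changes of -0.02 ± 0.22 and 0.00 ± 0.18 that did not pass.

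**Figure D4:**
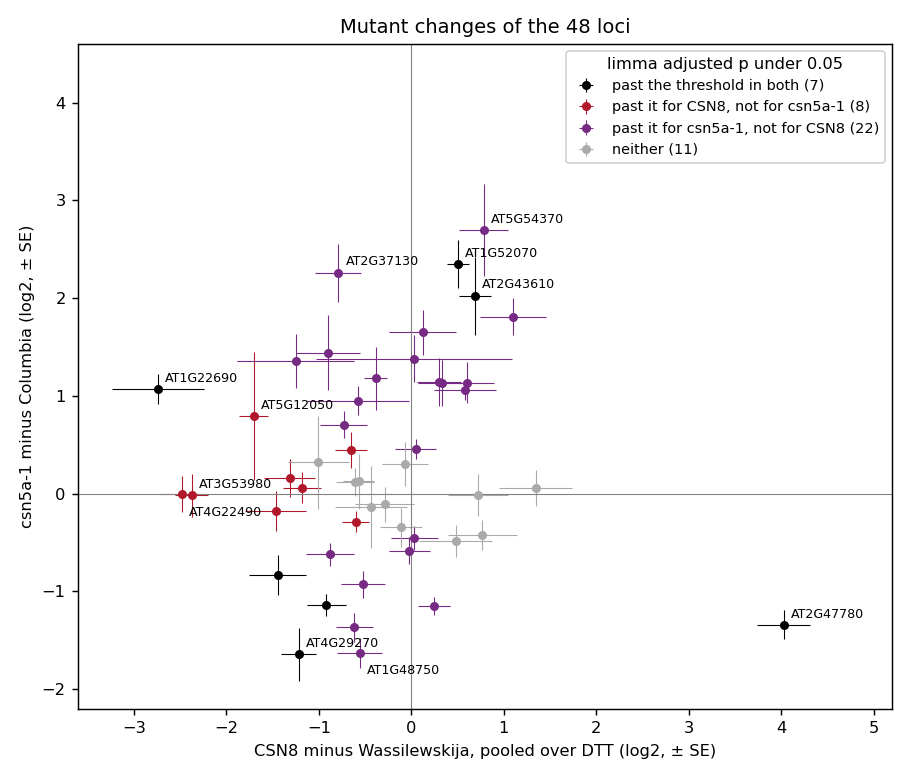
Change of each of the 48 loci in CSN8 against Wassilewskija, pooled over DTT (horizontal axis), and in csn5a-1 against Columbia (vertical axis), in log2 units with limma standard errors. Colours mark where the adjusted p was under 0.05, in both comparisons for 7 loci, for CSN8 alone 8, for csn5a-1 alone 22 and in neither 11. AT2G47780 lies at 4.03 and -1.34.

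Set side by side, 7 loci passed in both mutants (14.6%), against 7.24% of all probe sets. The shares of the 48 past the threshold were also above those of all probe sets in each comparison alone, so nothing is read from this count. Of the 7, AT1G52070 and AT2G43610 were higher in both, and AT4G18970, AT4G29270 and AT5G07030 lower in both. AT2G47780 and AT1G22690 passed in opposite directions, as did 2.37% of all probe sets. A further 8 passed for CSN8 and not csn5a-1, 22 for csn5a-1 and not CSN8, and 11 in neither. With batch as a block in the CSN8 fit, 14 passed in both (background 10.8%), 5 of them in opposite directions (background 3.67%), namely PRX71, AT3G54400 and AT4G30170 beside those 2. The arrays of both mutants lay apart from their wild types in opposite directions at 4 of the 48 loci, against 6.01% of all probe sets. With the block 12 passed for CSN8 and not csn5a-1, 15 for csn5a-1 and not CSN8, and 7 in neither. Over the 48 loci the 2 changes had a Pearson r of 0.06, and over all probe sets 0.16, as a description across genes, which are not independent replicates. Over all probe sets the 95% intervals reached a median of 0.34 log2 units to either side of the CSN8 change and 0.32 to either side of the csn5a-1 change.

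**Figure D5:**
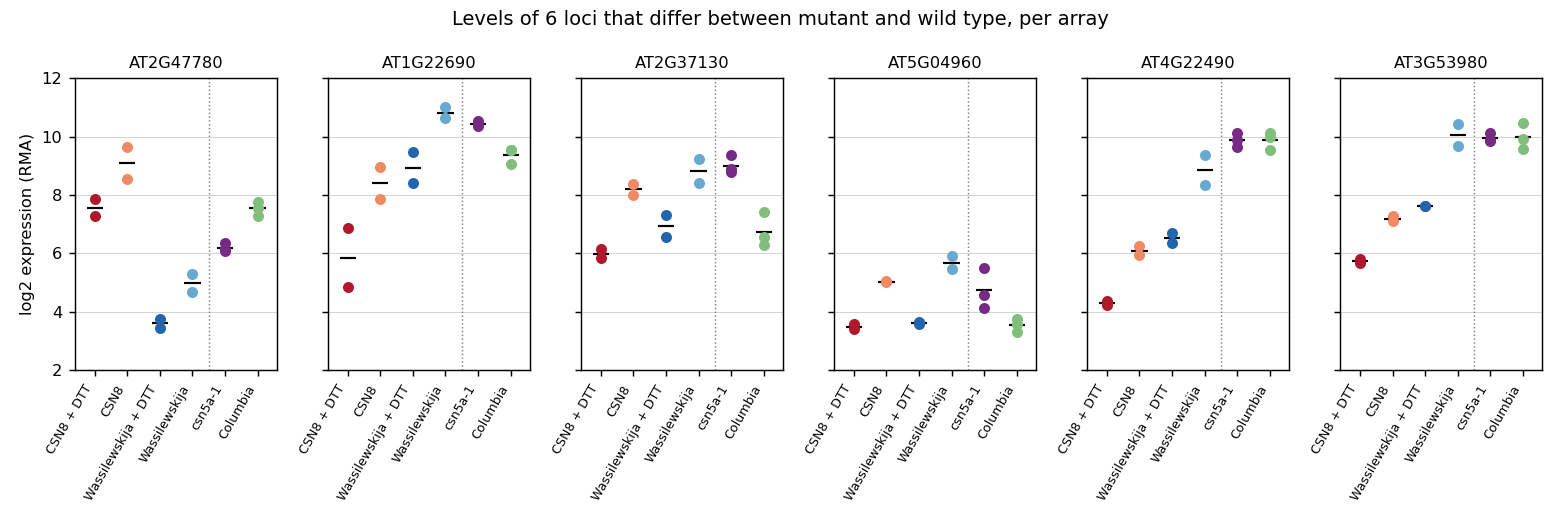
Log2 levels per array of 6 loci with differences between mutant and wild type, with points for arrays and bars for group means, and with the separately normalized csn5a-1 and Columbia arrays right of the dotted line. AT2G47780 is higher in CSN8 than in Wassilewskija with and without DTT, and lower in csn5a-1 than in Columbia. AT4G22490 and AT3G53980 are lower in CSN8 and overlap between csn5a-1 and Columbia.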

How the data were processed

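The authors deposited log2 values, 1 per Affymetrix ATH1 probe set, computed by RMA (per the submitters' notes on processing, version not given in the sources used here). Sorted values differed between arrays by a median of 0.0115 to 0.0754 within the CSN8 and Wassilewskija set or the csn5a-1 and Columbia set, and of 0.472 to 0.534 between the sets, so each set was fitted alone and no level was compared across them. The 64 control probe sets were left out. Genes came from the platform annotation and symbols from the TAIR10.1 RefSeq gene table. CSN8 (pooled over DTT, 8 arrays) and csn5a-1 (6 arrays) were tested against their wild types with limma 3.58.1 in R 4.3.3 (lmFit and eBayes, group means, two-sided), with Benjamini-Hochberg adjustment over 22746 probe sets and a threshold of 0.05. Other values were computed in Python 3.11.15 with pandas 2.3.3. The limma step was tested on simulated data with independent noise and a far smaller share of changed probe sets than passed here. The recovery in these fits can therefore differ from the simulated one. Of 100 changes of 1 log2 unit it recovered 57 for CSN8 and 51 for csn5a-1. Of 100 changes of 2 log2 units it recovered 87 and 91. A locus that did not pass may still have changed. The number of arrays limits the precision.

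The loci named are the 10 with the largest mean drop, up to 8 per direction and mutant among those past the threshold whose groups were apart, the 3 on either side of the limit, the 3 with the most and the 3 with the least negative drop in CSN8 minus that in Wassilewskija, those with the highest and lowest signal, and loci with an annotated product class (AT5G64120). AT1G52060 is also described in csn5a-1 for its place in a row, and AT5G04960, AT2G34510 and AT3G54400 were named after their values were seen. The 48 loci, the gene lists and the tests were chosen with earlier results of these data known. Batches are named by the labels, and deviations of arrays that share a batch correlated with r of 0.0747 to 0.572. Sequence features of proteins and promoters, also planned, were not analysed here. Alternatives were a batch or replicate block, quantile normalization, centring, a level filter, limma-trend and leaving out arrays.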

Additional observations from a re-analysis of the deposited data

Results flagged for a closer look

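At 4 of the 48 loci every CSN8 array lay on one side of its Wassilewskija counterparts, in both DTT states, and every csn5a-1 array on the other side of the Columbia arrays, against 6.01% of all probe sets (8.33% of the 48). The count is near that share, so nothing is read from it for the 48 loci as a set. AT2G47780 differed by 4.03 in CSN8 against Wassilewskija and by -1.34 in csn5a-1 against Columbia, on the log2 scale. AT1G22690 differed by -2.74 in CSN8 and by 1.07 in csn5a-1. AT2G37130 differed by -0.79 in CSN8, which did not pass limma (adjusted p = 0.0796), and by 2.26 in csn5a-1. AT5G04960 differed by -0.39 in CSN8, which did not pass limma either (adjusted p = 0.0887), and by 1.18 in csn5a-1. Its Columbia mean level was low, at percentile 23.6 of all probe sets. The difference between the 2 mutant effects was not tested, and the mutants also differ in the wild type they are set against.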

How the results depend on the processing

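With a limit of -0.8 in place of -1, 75 loci met the rule, and with -1.2, 31 did. Leaving out 1 pair in turn gave 55 to 66, which a rule over fewer pairs must raise. For CSN8, the block on batch gave 5042 probe sets past the threshold, 20 of the 48 loci lower and 6 higher. Leaving out 1 array gave 1584 to 3219 probe sets, 5 to 12 loci lower and 1 to 5 higher. For csn5a-1, a level filter of 5 left 11 loci higher, with fewer of them tested (41 of 48). The loci it removed had all been called higher without it. Leaving out 1 array gave 5421 to 7221 probe sets, 16 to 20 loci higher and 9 to 12 lower. The numbers of csn5a-1 and Columbia do not pair the arrays by the labels. Deviations of arrays with the same number correlated with r of 0.0448 to 0.0701, 5 of 6 arrays correlated best with their own number, and the replicate block gave 6925 probe sets, 19 loci higher and 11 lower. Of the 27 named mutant changes, 19 were lost under no alternative run and 0 changed sign. The level filter removed AT1G50060, AT1G52050 and AT1G52070 from the csn5a-1 fit, so their changes were not tested under it. Alternatives that kept all arrays ended 1 call in 132, and leaving out an array ended 31 in 184. The cause of these changes was not tested.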

Other observations

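The csn5a-1 replicate 1 array lay 1 log2 unit or more above the mean of replicates 2 and 3 at 3 of the 48 loci, against 2.55% of all probe sets, and that far below it at 0 loci, against 0.55%. AT5G12050 had 9.87 in replicate 1 against 7.53 and 7.07 in replicates 2 and 3, AT2G34510 had 9.10 against 7.24 and 7.22, and AT5G04960 had 5.51 against 4.56 and 4.14. Beside PRX71, AT5G64110 had a mean DTT difference of -1.04 over the 4 pairs, with single pairs from -1.42 to -0.51, so it did not meet the rule.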
